A study of Mus musculus with 16 samples.

Results

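Transcripts of 36 genes of endoplasmic reticulum (ER) protein folding and of the unfolded protein response were examined in mouse cortical bone. The genes were taken by symbol from the 36829 features in the files, and all 36 were listed. Features averaging 0.5 RPKM or more (reads scaled to feature length and library size) across the 16 mice were tested. This left 16973 features and 35 of the 36 genes, all but Trib3. The set was selected on the difference between the groups in these same mice, so the differences of its genes are given as a description and support nothing further.

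The RNA came from femoral cortical bone of 11-week-old female C57Bl/6 mice, with 1 library per mouse. In the unloaded group (HLU), 8 mice hung by the tail in a harness for 7 days so that the hind limbs bore no weight, and the 8 Control mice walked normally. The bone ends were cut off and the marrow was flushed out before the shaft was frozen. Bone transcripts such as Ibsp (mean 555.7 RPKM) and Mepe (182.8 RPKM) were abundant, but so were transcripts of marrow cells, such as S100a8 of neutrophils (10923 RPKM) and Igkc of plasma cells (1888 RPKM). A lower value in such tissue can mean fewer cells of a type or less RNA per cell, which cannot be told apart here.

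Proteins that are to be secreted fold in the ER with the help of Hsp70 and Hsp90 chaperones, lectin chaperones that hold sugar chains, and protein disulfide isomerases. When unfolded proteins build up, 3 sensors in the ER membrane respond. ATF6 is cut to release a transcription factor that raises chaperone genes, IRE1 (gene Ern1) splices Xbp1 mRNA so that it encodes a factor for secretion and degradation genes, and PERK (gene Eif2ak3) slows translation while raising ATF4 and CHOP (gene Ddit3). Osteoblasts load this machinery with collagen, and plasma cells load it with antibody.

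The DNA element through which ATF6 and XBP1 act, with the factor NF-Y, is the ER stress response element (ERSE), which reads CCAAT, then any 9 bases, then CCACG. It was searched on both strands in RefSeq promoter windows (GRCm38.p6, 250 bases before to 50 bases after each annotated start), which were given for 32 of the 36 genes, not for Atf6, Hyou1, Manf and Derl1. The element was present in 9 of these 32 genes and in 37 of all 27025 genes in the promoter table (0.137%). The 9 genes are shown because they are the ones among the 36 to which the letters point, on the strand of the gene from 5′ to 3′, with the element in capitals. Where it lies on the opposite strand, the capitals read as its reverse complement.
Hspa5 (chr2:34772015-34772053, plus strand): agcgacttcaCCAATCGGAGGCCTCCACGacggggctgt
Hsp90b1, distal (chr10:86705628-86705666, minus strand): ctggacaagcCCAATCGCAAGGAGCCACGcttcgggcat
Hsp90b1, proximal (chr10:86705523-86705561, minus strand): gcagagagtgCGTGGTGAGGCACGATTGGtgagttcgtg
Dnajc3 (chr14:118937817-118937855, plus strand): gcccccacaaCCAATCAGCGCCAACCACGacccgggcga
Creld2 (chr15:88819510-88819548, plus strand): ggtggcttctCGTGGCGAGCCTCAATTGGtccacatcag
Calr (chr8:84847065-84847103, minus strand): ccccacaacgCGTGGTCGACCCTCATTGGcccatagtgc
Canx (chr11:50325790-50325828, minus strand): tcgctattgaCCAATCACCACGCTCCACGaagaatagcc
Pdia6 (chr12:17266481-17266519, plus strand): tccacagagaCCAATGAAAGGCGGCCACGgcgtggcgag
Derl3 (chr10:75893232-75893270, plus strand): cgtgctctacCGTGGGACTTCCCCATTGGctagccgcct
Syvn1 (chr19:6046522-6046560, plus strand): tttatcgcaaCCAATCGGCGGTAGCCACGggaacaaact

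The elements lay between 212 and 26 bases before the start, and Hsp90b1 was the only one of the 32 genes with 2 of them. Of the related elements, ERSE-II (ATTGG and CCACG with 1 base between them, so that its last 5 letters are those of the ERSE) was found in Herpud1 and Dnajb11 (0.0444% of all genes), and the XBP1 element UPRE (TGACGTGG) in Txndc5 and Txndc11 (0.714% of all genes). The ATF4 composite element (TGATGNAA) was found in Trib3, Txndc5 and Herpud1 (4.51% of all genes). The ERSE-II and the UPRE are each shown from the gene whose site lies nearest before its start, to set them beside the ERSE.
Herpud1, ERSE-II (chr8:94386367-94386397, plus strand): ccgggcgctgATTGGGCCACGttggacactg
Txndc11, UPRE (chr16:11134617-11134644, minus strand): gaagtgtggcTGACGTGGagagtccggg
A match describes the letters in a window and is not evidence that a factor was bound in these bones.

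Groups were set against each other with limma, a linear model with variances moderated across features, on values of log2(RPKM + 0.1). A feature was called lower or higher at an unadjusted p under 0.05 with a change of at least 1.2-fold. Of the 35 genes tested, 10 were called lower in HLU, beside 4.76% of all features tested, and 0 were called higher, beside 1.11%. The 10 genes had unadjusted p from 0.000142 to 0.0249 and Benjamini-Hochberg adjusted p from 0.543 to 0.744, so none passed the adjusted threshold of 0.1, nor did any feature (0%), while 1049 features had an unadjusted p under 0.05. Genes of the set passed that threshold in 2 of the 33 alternative settings. With erythroid and neutrophil scores as covariates they were Hsp90b1 (limma adjusted p = 0.0212), Sdf2l1 (0.0307), Pdia3 (0.0531) and Hspa5 (0.0985), and with the promyelocyte score Sdf2l1 (0.0469). The direction was negative for 34 of the 35, beside 67.9% of all features, with Dnajb9 as the exception, and for 32 of the 35 after median-of-ratios rescaling, where P4hb and Txndc5 turned as well.

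All features together were shifted, with a median difference of -0.10 on the log2 scale, and the 35 genes had a median of -0.25, which is -0.15 relative to that shift. After median-of-ratios rescaling, which divides each library by its typical ratio to the other libraries, the medians were -0.01 for all features and -0.16 for the 35 genes, and 6 of the genes were called lower, beside 2.32% of all features. The calls over all features then changed from 808 lower and 188 higher to 394 lower and 381 higher. The 36 genes together summed to between 1562 and 2130 RPKM in the Control mice and between 1276 and 1745 RPKM in the HLU mice. Of the 35 genes, 19 to 31 lay below the Control median in each HLU mouse and 11 to 26 did so in each Control mouse.

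**Figure D1:**
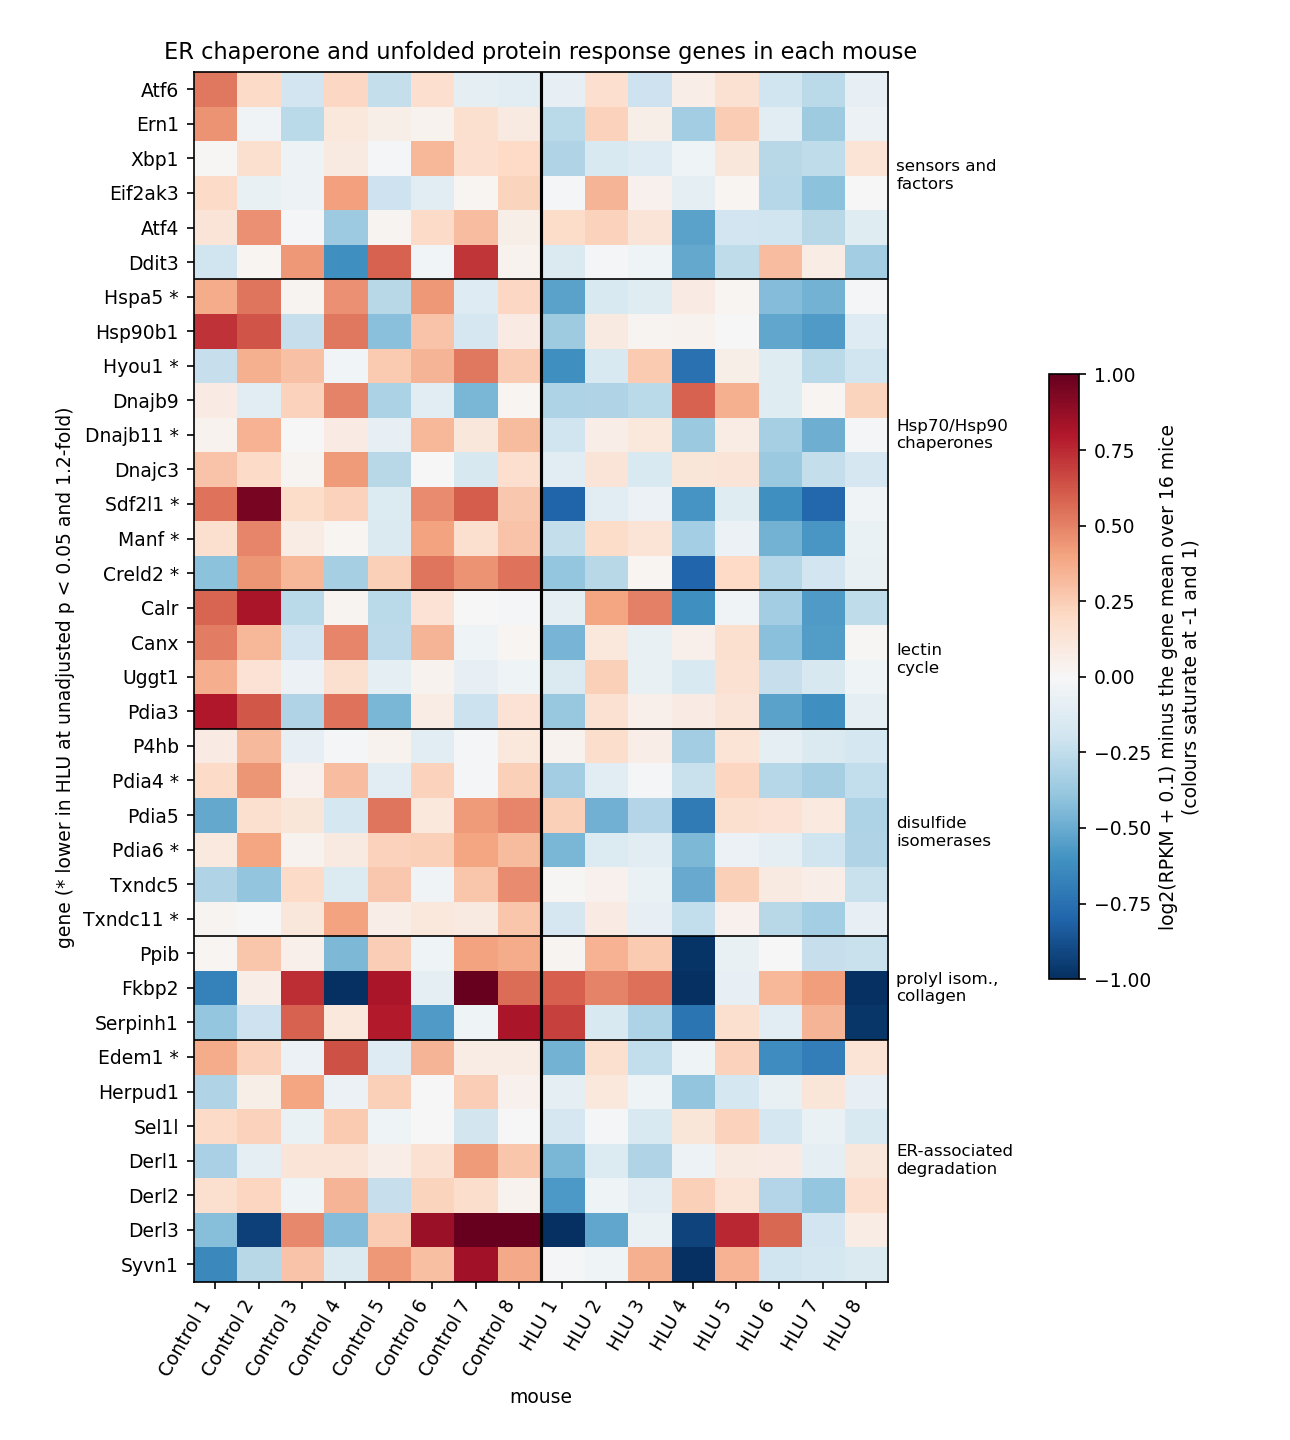
Each row is 1 of the 35 genes tested and each column 1 mouse, and colour gives log2(RPKM + 0.1) minus the gene's mean over the 16 mice, with colours saturating at -1 and 1. Horizontal lines separate the roles, a star marks the 10 genes called lower, and HLU 1, 4, 6 and 7, each with 30 of the 35 genes below the Control median, hold most of the deep blue cells among the chaperones and disulfide isomerases.

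The Hsp70 and Hsp90 chaperones and their cofactors held 6 of the 10 calls, from 9 genes, beside 4.76% of all features called lower. Sdf2l1, an ER-resident cofactor that works with Hsp40 proteins beside BiP, differed most. Its abundance was 17.02 to 36.3 RPKM in Control (median 24.4) and 10.7 to 18.3 RPKM in HLU (median 14.8), a log2 difference of -0.78 (SE 0.16). Each of the 8 HLU mice was below the Control median and 4 were below every Control mouse, and 7 Control mice were above every HLU mouse. The call held in each of the 16 comparisons with 1 mouse left out and in each of 17 other settings, with differences from -0.85 to -0.64.

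Hspa5 encodes BiP, the Hsp70 of the ER and the protein that holds the 3 sensors inactive. It was measured at 83.7 to 147 RPKM in Control (median 124) and at 70.0 to 107 RPKM in HLU (median 92.4), a log2 difference of -0.41 (SE 0.14). The ranges overlapped, with each HLU mouse below the Control median. Its call also held in all 33 alternative settings, from -0.56 to -0.27. Hyou1, the large Hsp70-like protein that exchanges nucleotide on BiP, was at 6.27 to 10.7 RPKM in Control (median 8.97) and 4.35 to 8.87 RPKM in HLU (median 6.53). Its log2 difference was -0.44 (SE 0.15), no HLU mouse reached the Control median, and the call was lost only with the erythroid and neutrophil scores as covariates (-0.20).

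Creld2, a disulfide isomerase-like stress protein, was at 15.5 to 30.1 RPKM in Control (median 27.1) and 11.9 to 23.7 RPKM in HLU (median 17.5), a log2 difference of -0.45 (SE 0.17). Manf, a secreted stress-induced factor that binds BiP, was at 18.4 to 28.7 RPKM in Control (median 22.8) and 13.6 to 23.1 RPKM in HLU (median 18.4), a log2 difference of -0.36 (SE 0.13). Both overlapped between the groups, and 6 Control mice lay above every HLU mouse for Creld2 and 3 for Manf. Dnajb11, an Hsp40 partner of BiP, was at 27.0 to 36.5 RPKM in Control (median 30.6) and 20.3 to 30.8 RPKM in HLU (median 26.6), a log2 difference of -0.29 (SE 0.11). The Dnajb11 call was lost without Control 2, 6 or 8 or without HLU 4, 6 or 7, with differences from -0.26 to -0.24. It was also lost in 8 of 17 other settings, as the Creld2 call was in 4 and the Manf call in 3.

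The other 3 genes of the group were not called. Hsp90b1 (GRP94, the ER Hsp90) had the widest range of them, with 109 to 240 RPKM in Control (median 166) and 98.01 to 155 RPKM in HLU (median 139), a log2 difference of -0.36 (SE 0.18). Its low Control mice overlapped the HLU mice while 4 Control mice stood above all of them. Hsp90b1 was called in 8 of 33 alternative settings (-0.60 to -0.29), namely without Control 3, 5 or 7 or without HLU 2 and with the GC slope, the collagen score, the promyelocyte score or the erythroid and neutrophil scores as covariates. Dnajc3, which restrains PERK and helps BiP, differed by -0.17 (SE 0.11). Dnajb9, an Hsp40 known as a target of spliced XBP1 and a repressor of IRE1, was at 19.8 to 38.5 RPKM in Control (median 26.4) and 21.9 to 41.1 RPKM in HLU (median 26.3), a log2 difference of 0.05 (SE 0.16). The sign of Dnajb9 turned in 5 of 33 alternative settings.

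**Figure D2:**
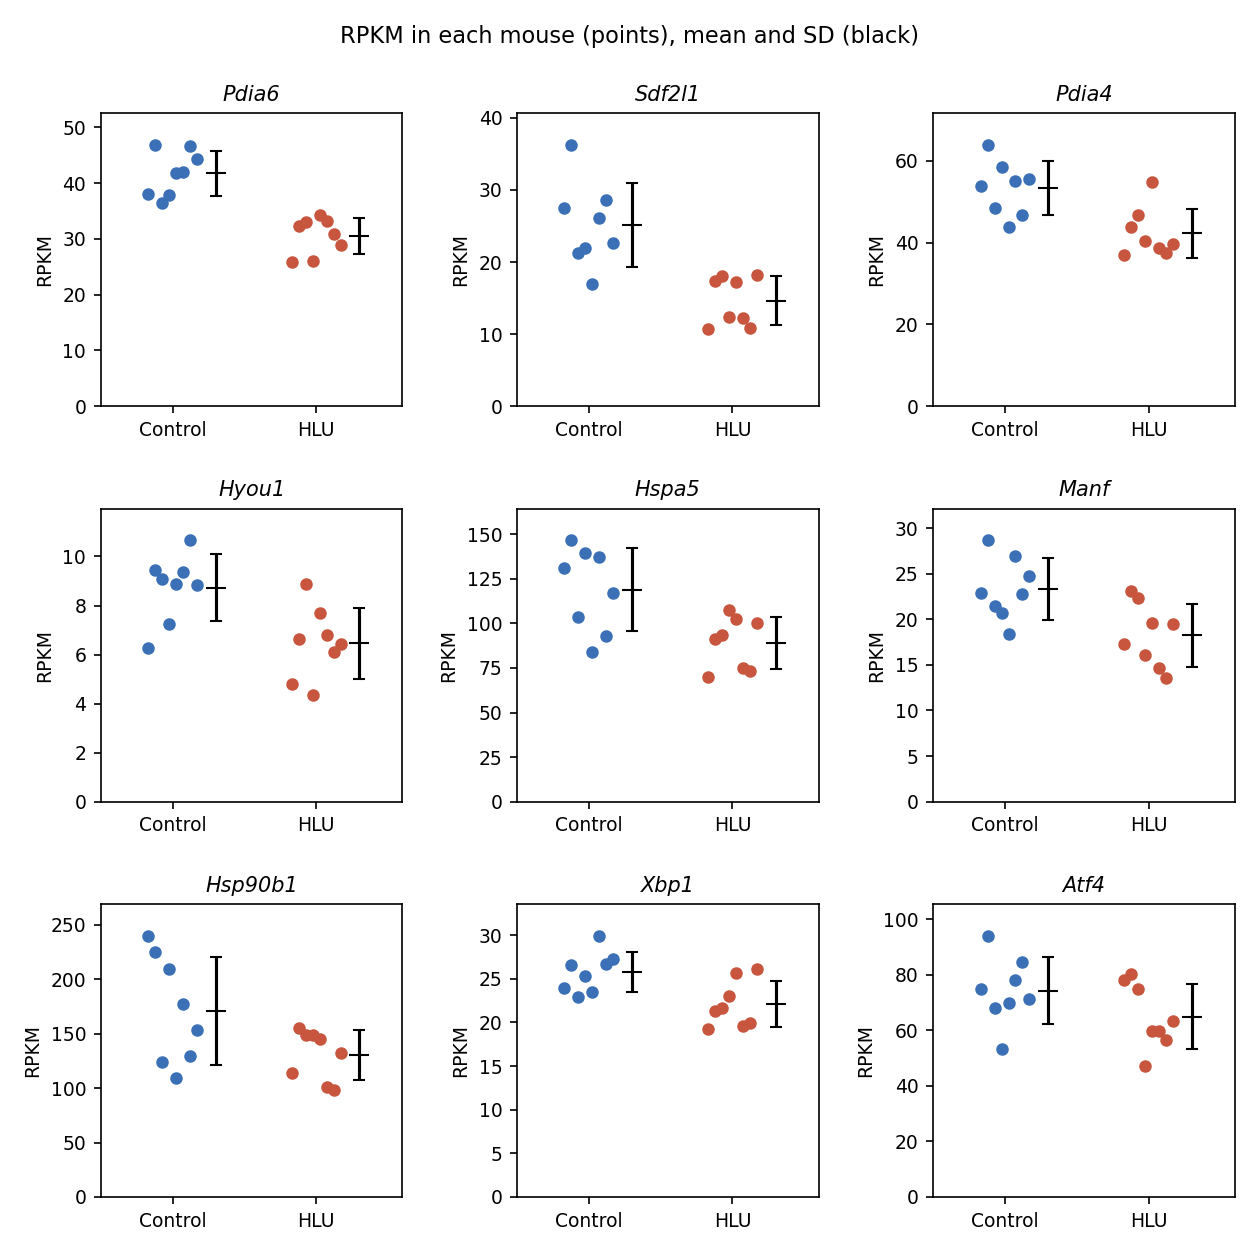
RPKM of 9 genes in each of the 8 Control and 8 HLU mice, with the mean and SD in black beside the points and every axis starting at 0. The 8 HLU points of Pdia6 (25.9 to 34.2 RPKM) lie below all 8 Control points (36.5 to 46.9 RPKM), and the groups overlap in the other 8 genes shown.

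Of the 6 protein disulfide isomerases, which form and rearrange disulfide bonds, 3 were called lower, beside 4.76% of all features. Pdia6 was at 36.5 to 46.9 RPKM in Control (median 41.8) and at 25.9 to 34.2 RPKM in HLU (median 31.6), a log2 difference of -0.45 (SE 0.09). The groups did not overlap, which was so for 3 of the 16973 features in this direction (0.0177%). The call held in all 33 alternative settings, with differences from -0.48 to -0.31. Pdia6 lies on chromosome 12 (GRCm38, 17266545 to 17284770, plus strand, GENCODE M21) and shares 2.30% of its exonic bases with Atp6v1c2 on the other strand, and the library kit does not record strand.

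Pdia4, which acts with GRP94 and BiP, was at 43.9 to 63.9 RPKM in Control (median 54.4) and 36.97 to 54.7 RPKM in HLU (median 39.97), a log2 difference of -0.33 (SE 0.11). Of the HLU mice 6 were below every Control mouse. Its call was lost after median-of-ratios rescaling (-0.24), quantile normalization (-0.19), scaling to listed non-mitochondrial reads (-0.22) and rescaling with the GC slope (-0.24). Txndc11 was low, at 2.61 to 3.46 RPKM in Control (median 2.79) and 2.03 to 2.77 RPKM in HLU (median 2.37), a log2 difference of -0.27 (SE 0.10). There too 6 HLU mice lay below every Control mouse, but the call was lost without Control 4 or 8 or without HLU 4, 6 or 7 (-0.25 to -0.23) and in 10 of 17 other settings.

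The isomerases not called were P4hb, Pdia5 and Txndc5. P4hb, which is both the classical disulfide isomerase and the beta subunit of the collagen prolyl 4-hydroxylase, was at 114 to 154 RPKM in Control (median 124) and 96.5 to 139 RPKM in HLU (median 121). Its log2 difference was -0.08 (SE 0.10), and it was 0.01 after median-of-ratios rescaling and 0.06 after quantile normalization. Txndc5 differed by -0.09 (SE 0.14), by 0.01 after median-of-ratios rescaling and by 0.03 after quantile normalization, and Pdia5 by -0.29 (SE 0.17) on 83 to 283 reads per library.

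**Figure D3:**
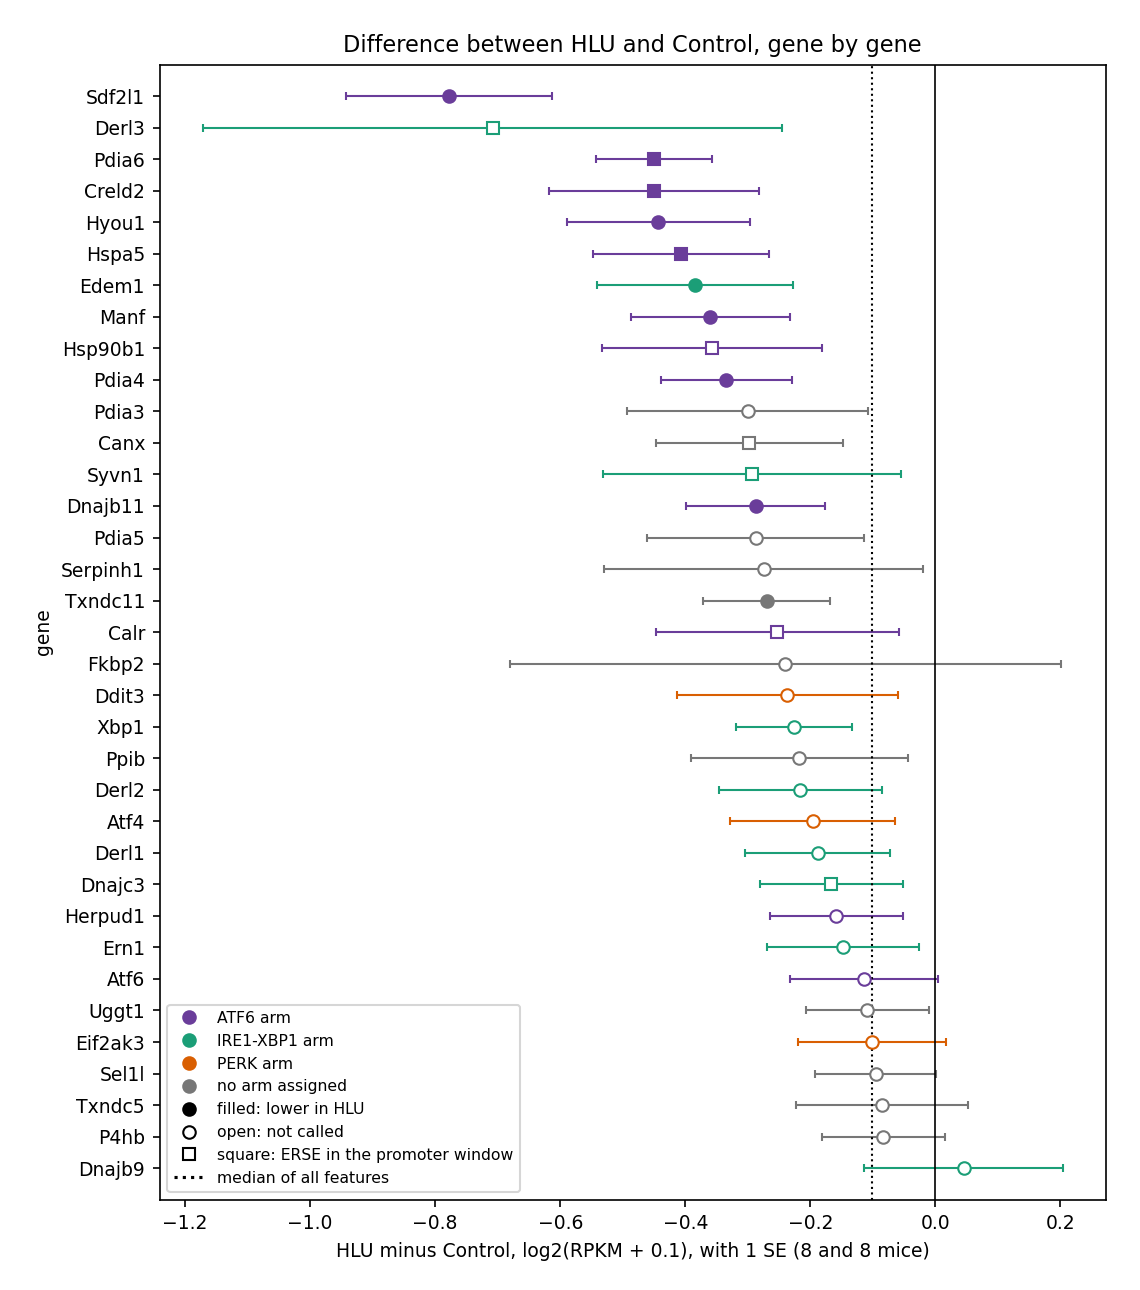
Log2 difference of HLU from Control with 1 SE for the 35 genes tested, ordered by size and coloured by the arm of the response they were assigned to. Filled points are the 10 genes called lower, squares are the 9 genes with an ERSE, and the dotted line is the median of all features at -0.10. The ATF6 genes center on -0.36 and hold 8 of the filled points, while the IRE1-XBP1 genes center on -0.22. Over all features, 4.76% were called lower.

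None of the 4 genes of the lectin cycle was called, beside 4.76% of all features called lower. In this cycle calnexin and calreticulin retain glycoproteins until they are folded. Calr (calreticulin) was among the most abundant of the 36 genes, at 159 to 339 RPKM in Control (median 193) and 126 to 273 RPKM in HLU (median 170), a log2 difference of -0.25 (SE 0.19). Canx (calnexin) was at 71.6 to 122 RPKM in Control (median 97.5) and 58.0 to 95.7 RPKM in HLU (median 84.0), a log2 difference of -0.30 (SE 0.15). All 8 HLU mice lay below the Control median of Canx, and 6 did so for Calr. Pdia3, the isomerase that works with both lectins, differed by -0.30 (SE 0.19), and Uggt1, which marks unfolded glycoproteins for another round, by -0.11 (SE 0.10), which is -0.01 relative to the median of all features. With the GC slope as covariate Canx (-0.30) and Pdia3 (-0.30) were called, and with the erythroid and neutrophil scores Canx (-0.45), Pdia3 (-0.57) and Calr (-0.32). Canx was also called without Control 3 or 5 or without HLU 2 or 5 (-0.36 to -0.33).

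The sensors and transcription factors themselves were not called either (0 of 6, beside 4.76% of all features called lower). Xbp1 came nearest, at 22.9 to 29.9 RPKM in Control (median 25.9) and 19.3 to 26.2 RPKM in HLU (median 21.5). Its log2 difference of -0.23 (SE 0.09) had an unadjusted limma p of 0.0256 but stayed under 1.2-fold, and gene-level values do not separate the spliced from the unspliced mRNA. Atf6 differed by -0.11 (SE 0.12), Ern1 by -0.15 (SE 0.12) and Eif2ak3 by -0.10 (SE 0.12), so the 3 sensor genes lay between -0.05 and 0.00 relative to the median of all features. With quantile normalization the differences of Atf6 and Eif2ak3 were 0.02 and 0.01.

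On the PERK arm, Atf4 was at 53.2 to 94.1 RPKM in Control (median 73.2) and 47.2 to 80.3 RPKM in HLU (median 61.5), a log2 difference of -0.20 (SE 0.13). Ddit3, which encodes the pro-apoptotic factor CHOP, was at 5.82 to 14.7 RPKM in Control (median 9.14) and 6.25 to 11.1 RPKM in HLU (median 8.39), a log2 difference of -0.24 (SE 0.18). The HLU values of Ddit3 lay wholly inside the Control range. Trib3, a CHOP target, was listed at 0.0401 to 0.363 RPKM in Control and 0.0483 to 0.271 RPKM in HLU on 2 to 34 reads per library, too few for a comparison.

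The prolyl isomerases and the collagen chaperone varied widely among mice and none of the 3 was called, beside 4.76% of all features called lower. Ppib (cyclophilin B), which helps collagen chains to fold, was the most abundant of the 36 genes, at 148 to 267 RPKM in Control (median 224) and 102 to 257 RPKM in HLU (median 197). Its log2 difference was -0.22 (SE 0.17), and 57.6% of its exonic bases are shared with Snx22 on the other strand. Serpinh1 (HSP47), the chaperone dedicated to collagen, was at 54.0 to 142 RPKM in Control (median 82.1) and 40.8 to 129 RPKM in HLU (median 73.1), a log2 difference of -0.27 (SE 0.25). Fkbp2 spanned 6.33 to 48.5 RPKM in Control (median 26.0) and 5.43 to 31.3 RPKM in HLU (median 26.8), so that its difference of -0.24 (SE 0.44) was smaller than its error.

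Among the 7 genes of ER-associated degradation, which returns misfolded proteins to the cytosol, Edem1 alone was called lower, beside 4.76% of all features. Edem1, a lectin that removes hopeless glycoproteins from the folding cycle, was at 25.4 to 43.1 RPKM in Control (median 30.9) and 17.2 to 32.6 RPKM in HLU (median 25.2), a log2 difference of -0.38 (SE 0.16). Its call was lost without Control 4 or without HLU 6 or 7 (-0.32 to -0.31), and with median-of-ratios rescaling (-0.29), quantile normalization (-0.25) or the plasma cell score as covariate (-0.21). Derl3 had the second largest difference of the 35 genes, -0.71 (SE 0.46), but it was nearly absent, at 0.318 to 2.40 RPKM in Control (median 0.930) and 0.0384 to 1.24 RPKM in HLU (median 0.630), on 1 to 41 reads per library. The other channel and ligase components differed by -0.22 (Derl2, SE 0.13), -0.19 (Derl1, SE 0.12), -0.16 (Herpud1, SE 0.11), -0.10 (Sel1l, SE 0.10) and -0.29 (Syvn1, SE 0.24).

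Sorted by arm, 8 of 12 genes assigned to ATF6 were called lower, 1 of 9 assigned to IRE1-XBP1 (Edem1) and 0 of 3 tested on the PERK arm. Of all features 4.76% were called lower, and counts of 1 of 9 and 0 of 3 are too small to read against that share. The medians of the log2 differences on the 3 arms were -0.36, -0.22 and -0.20. After median-of-ratios rescaling the counts were 6 of 12, 0 of 9 and 0 of 3, beside 2.32% of all features, with medians of -0.27, -0.12 and -0.10. Averaged over its 12 genes, the ATF6 arm was higher in 7 Control mice than in any HLU mouse. It was lower in 5 HLU mice than in any Control mouse. These 2 counts were 2 and 6 for the 9 IRE1-XBP1 genes, and 1 and 2 for the 3 PERK genes. No share over all features was computed for such averages. The arms overlap in life, since XBP1 also acts on several genes placed under ATF6, and the assignment came from general knowledge after results of this contrast were known.

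The 9 genes with an ERSE had a median difference of -0.36, with 3 called (Pdia6, Hspa5 and Creld2). The 22 tested genes with a promoter window but no ERSE had a median of -0.22, with 5 called. Of all features 4.76% were called lower. Sdf2l1, with the largest difference, was among the genes without these exact letters in the window.

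Of 142 further genes of the ER and secretory pathway that passed the filter, 8 were called lower and 0 higher, beside 4.76% and 1.11% of all features. Their median of -0.11 was close to that of all features. The genes named here are therefore a listing and not a result about the pathway. The 4 called among 30 genes of the translocon, signal peptidase and sugar transferase were Rpn1 (-0.28, SE 0.10), Ostc (-0.26, SE 0.10), Sec61a1 (-0.30, SE 0.13) and Sec61b (-0.35, SE 0.16), of which Rpn1 and Ostc belong to the sugar transferase and the others to the translocon channel. Sec61b was named after its value was seen. Ganab, the glucosidase that trims glycans for calnexin, was the 1 called of 32 other folding factors (-0.27, SE 0.10). The 3 called among 25 other ATF4 and CHOP targets were the amino acid and one-carbon genes Mthfd2 (-0.58, SE 0.22), Psat1 (-0.49, SE 0.20) and Slc7a5 (-0.50, SE 0.22). The largest difference of that list had the other sign and was not called (Chac1, 1.095, SE 0.66, named after its value was seen), and it was the 1 of the 25 called higher with the GC slope as covariate. None was called among 11 other regulators, 20 other degradation genes or 24 genes of collagen modification and export, whose median was -0.08. With median-of-ratios rescaling, 1 of the 142 was called lower and 1 higher, beside 394 and 381 of all 16973 features.

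Other transcripts moved with these genes, and their part in the differences was not tested except where a value is given. Heat shock proteins outside the ER were lower, with 8 of 10 genes called and a median of -0.44, among them Hsph1 (-0.58, SE 0.16) and Hsp90aa1 (-0.58, SE 0.22) of the cytosol and Hspe1 (-0.48, SE 0.14) and Hspd1 (-0.31, SE 0.14) of mitochondria, which were named after their values were seen. Hsp90ab1, the most abundant of the list, was not called (-0.20), and the list summed to 384 to 576 RPKM in Control and 307 to 447 RPKM in HLU. Plasma cell genes had a median of -0.34 with 0 of 15 called, and summed to 1978 to 5318 RPKM in Control and 1068 to 3828 RPKM in HLU. Erythroid genes had a median of -0.55 with 3 of 12 called (summed 3257 to 9051 RPKM and 1817 to 4760 RPKM), and proliferation genes one of -0.49 with 1 of 10 called (summed 347 to 710 RPKM and 175 to 651 RPKM). No gene listed for these cell types was at 0 in any mouse. Fibrillar collagens had a median of 0.03 with 0 of 10 called and summed to 392 to 1240 RPKM in Control and 512 to 1494 RPKM in HLU. Osteocyte genes went the other way, with 6 of 6 positive, a median of 0.49 and 1 called higher (Mepe, 0.79, SE 0.32), and adipocyte genes had a median of 0.58 with 0 of 5 called. B cell genes were negative in 10 of 10, with a median of -0.36 and 1 called lower (Vpreb3, -0.81, named after its value was seen).

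With the plasma cell score, the mean of centred log2 values of 15 plasma cell genes, as a covariate, 6 of the 35 genes were called lower, beside 1.67% of all features, and their median was -0.19. Pdia6, Sdf2l1, Hspa5, Hyou1, Creld2 and Pdia4 kept the call. With the fibrillar collagen score as covariate 12 were called, beside 5.33% of all features, and with the erythroid and neutrophil scores 12, beside 10.3%. Among genes not called otherwise, single settings also called Serpinh1 (-0.32, collagen score), Atf6 (-0.27) and Dnajc3 (-0.33, both erythroid and neutrophil scores), Ddit3 (-0.34, without Control 4) and Derl3 (-1.05, without the 2 smallest libraries), and Pdia5 was called without Control 1 (-0.38) and with the GC slope (-0.29).

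Libraries held 7067512 to 21363584 reads by the divisor that the RPKM values imply, and 3 reads on a gene of 1 kb correspond to 0.140 to 0.424 RPKM, a limit from counting alone. Mitochondrial transcripts took 6.08% to 13.9% of the reads on listed features in Control and 7.88% to 19.1% in HLU. Libraries differed strongly in how abundance followed the GC content of genes, with slopes from -0.49 to 0.40 log2 units per 10 percentage points of GC in Control and from -0.60 to 0.27 in HLU. The mean slopes were alike (exact permutation p = 0.990, two-sided). With this slope as a covariate, 14 of the 35 genes were called lower, beside 8.16% of all features, and the median difference was -0.25. HLU 1 and HLU 4 had the largest mitochondrial shares and 30 of the 35 genes below the Control median each, while HLU 8, with 11.2%, had 31. The library kit does not record strand, and besides Ppib the genes that share most exonic bases with one on the other strand were Hsp90b1 (14.7%) and Eif2ak3 (10.02%).

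Whether the genes vary together from mouse to mouse was asked within groups, on deviations of the 16 mice from their own group mean, which does not use the difference between the groups. As deposited, Hspa5 correlated with Canx (r = 0.91, rho = 0.78, adjusted permutation p = 0.00250 for r and 0.0183 for rho), Hsp90b1 (r = 0.89, rho = 0.80, adjusted permutation p = 0.00250 and 0.0168) and Pdia3 (r = 0.86, rho = 0.77, adjusted permutation p = 0.00377 and 0.0203). Without Control 2 and HLU 1, the mice farthest from the median of Hspa5, these r were 0.91, 0.89 and 0.85. Of 34 relations with Hspa5, 10 were positive and 4 negative at an adjusted permutation p under 0.05, adjusted over the 139 relations computed in all, and 11 of the 14 also passed by rho. An r of at least 0.6 was reached by 12 of the 34 genes, beside 17.1% of other features. One of -0.6 or lower was found for 6, beside 15.6% (Ddit3 -0.80, Fkbp2 -0.71, Serpinh1 -0.67, Pdia5 -0.66, Txndc5 -0.64 and Herpud1 -0.63).

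The genes most alike to Hspa5 also followed the GC slope of the libraries. The slope correlated within groups with Hspa5 (r = -0.84), Canx (r = -0.84), Hsp90b1 (r = -0.82) and Pdia3 (r = -0.81), whose GC contents were 42.1% to 46.9%, and in the other direction with Fkbp2 (r = 0.92, GC 62.6%) and Ddit3 (r = 0.90, GC 45.6%). With libraries rescaled and the slope removed from both measures, 6 of the 34 genes had an r of at least 0.6 with Hspa5, beside 0.998% of other features. They were Creld2 (0.82), Pdia4 (0.80), Hyou1 (0.71), Dnajb11 (0.69), Manf (0.65) and Sdf2l1 (0.62), and all 6 belong to the 11 other genes of the ATF6 arm, against 0 of the 23 remaining genes. As deposited, Creld2 and Hyou1 had r near 0 with Hspa5 (-0.13 and -0.11), while Edem1 had 0.80, which was 0.49 with the slope alone removed and 0.03 with rescaling as well. With the slope alone removed, 11 of the 34 genes were at 0.6 or more, beside 5.15% of other features. They were 8 of the 11 other ATF6 genes and 3 of the remaining 23 (Canx 0.69, Xbp1 0.65 and Derl2 0.61). With rescaling as well, r ranged from 0.11 to 0.82 in the 11 ATF6 genes and from -0.41 to 0.53 in the remaining 23. The arms thus overlapped in r, although none of those 23 reached 0.6. The corrections were chosen after the slopes had been seen, and these values are a description without a test.

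Plasma cells, which need IRE1 and XBP1 to secrete antibody, offered another measure to set the genes beside. Edem1 had the highest r with the plasma cell score (0.75, rho = 0.72, adjusted permutation p = 0.0259 for r and 0.0444 for rho), followed by Ern1 (0.69, rho = 0.66, adjusted permutation p = 0.0382 and 0.0491). Xbp1 reached 0.67 (rho = 0.70, adjusted permutation p = 0.0449 and 0.0482), and Txndc11, Canx and Eif2ak3 0.68, 0.66 and 0.64. In all, 6 of 35 relations were positive at an adjusted permutation p under 0.05 and 0 negative. By rho 4 of the 6 passed, without Txndc11 (adjusted permutation p = 0.0727) and Eif2ak3 (0.0721). In all 8 genes reached an r of 0.6, beside 15.8% of other features, with 0 at -0.6 or lower, beside 1.61%. Of the 6 genes, Edem1, Ern1 and Xbp1 belong to the IRE1-XBP1 arm, Eif2ak3 to the PERK arm and the others to neither. Without HLU 1 and HLU 7, which lay farthest from the median of the score, 2 genes did (Edem1 0.62 and Txndc11 0.60), so the other relations rest in part on these mice. With libraries rescaled and the GC slope removed, Edem1 alone was at 0.6 or more (0.62), beside 7.02% of other features, Derl3 and Syvn1 had 0.56 and 0.52, and Xbp1 had 0.13.

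**Figure D4:**
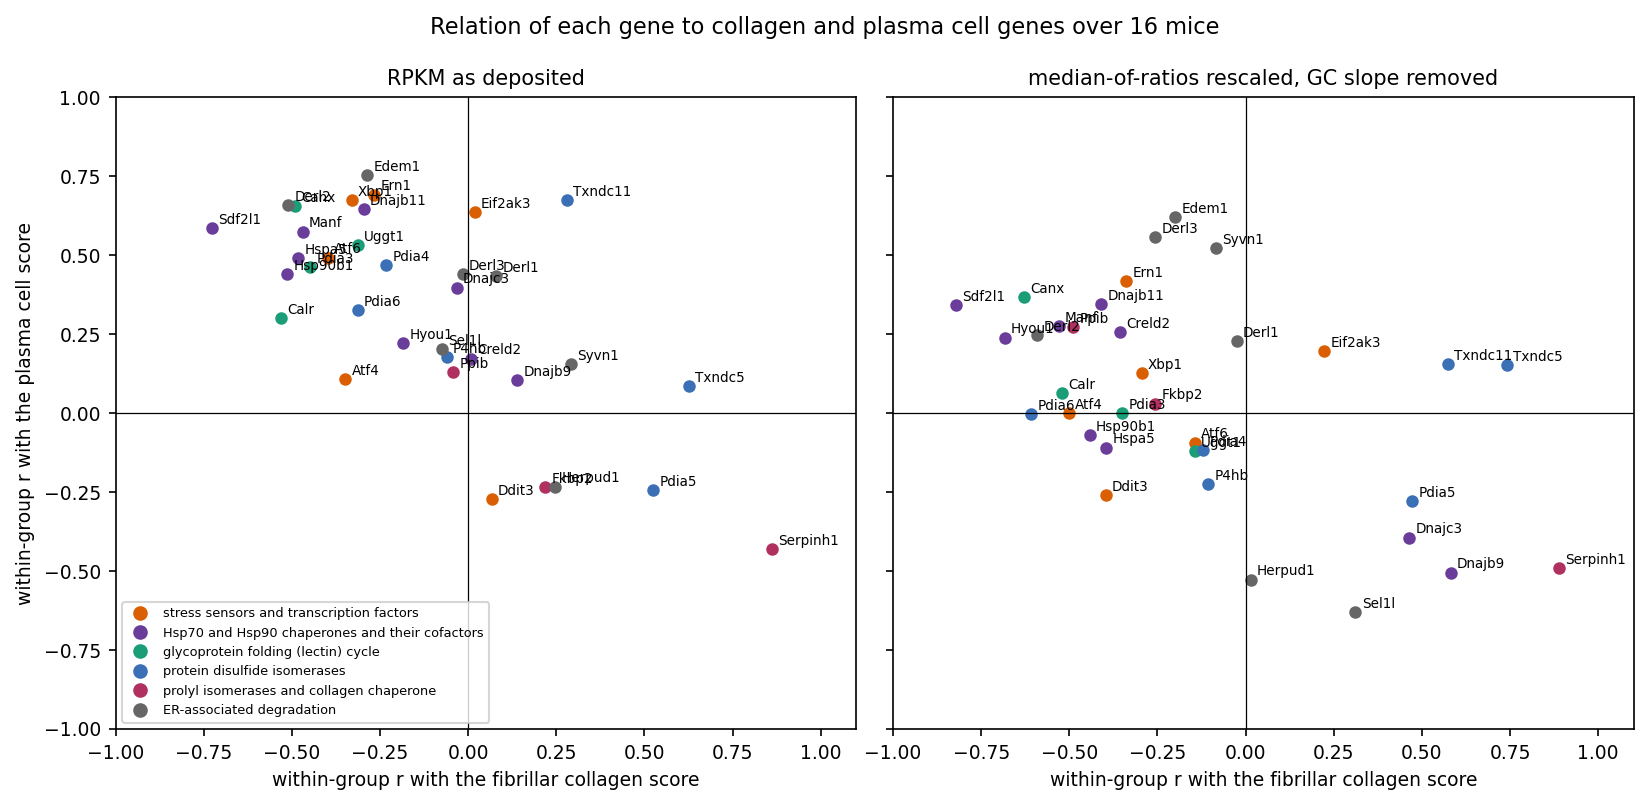
Each point is 1 of the 35 genes, placed by its within-group r over 16 mice with the fibrillar collagen score (horizontal) and with the plasma cell score (vertical), left as deposited and right with libraries rescaled and the GC slope removed. Serpinh1 sits at the collagen end in both panels (0.86 and 0.89), Sdf2l1 at the opposite end (-0.73 and -0.82), and Edem1 has the highest r with the plasma cell score in both (0.75 and 0.62).

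As deposited, relations to the collagen genes at an r of 0.6 or -0.6 were about as frequent among the 35 genes as among other features. Serpinh1 followed the fibrillar collagen score closely (r = 0.86, rho = 0.86, adjusted permutation p = 0.00250 and 0.00371), also without Control 8 and HLU 1 (0.80) and with the rescaling and GC slope removed (0.89). Sdf2l1 went the other way (r = -0.73, rho = -0.74, adjusted permutation p = 0.0189 and 0.0155), with -0.70 without these mice and -0.82 after rescaling with the slope removed. Those were the 2 relations of 35 at an adjusted permutation p under 0.05. An r of at least 0.6 was reached by Serpinh1 and Txndc5 (0.63), beside 7.66% of other features, and one of -0.6 or lower by Sdf2l1, beside 4.02%. With libraries rescaled and the slope removed, Serpinh1 and Txndc5 (0.74) were again the 2 at 0.6 or more, beside 10.6% of other features, and those at -0.6 or lower were 4, beside 12.7% (Sdf2l1, Hyou1 -0.68, Canx -0.63 and Pdia6 -0.61). P4hb (r = -0.06) and Ppib (r = -0.04), which also act on collagen, had r near 0 with the score, and the general chaperones Hspa5 and Hsp90b1 had r of -0.48 and -0.51 that did not pass (adjusted permutation p = 0.168 and 0.153).

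Granule genes of promyelocytes, the marrow cells that fill neutrophil granules through the ER, made a further measure, although the list rests on Ctsg and Ms4a3, the 2 of its 6 genes that the files list. Sdf2l1 (r = 0.85, rho = 0.85, adjusted permutation p = 0.00250 and 0.00371) and Calr (r = 0.84, rho = 0.79, adjusted permutation p = 0.00278 and 0.0144) led, and both stayed at 0.82 after rescaling with the GC slope removed. Of 35 relations 9 were positive at an adjusted permutation p under 0.05 and 0 negative. An r of at least 0.6 was reached by 10 genes, beside 18.5% of other features, by 5 without Control 2 and HLU 7, and by 10 with libraries rescaled and the slope removed, beside 21% of other features. The granule genes differed little between the groups, with a median of -0.16, and with their score as covariate 9 of the 35 genes were called lower, beside 5.44% of all features. All these relations share the libraries from which both measures were read.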

How the data were processed

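Total RNA of 16 femoral shafts, 1 library per mouse, was sequenced with an unstranded TruSeq v2 kit, 8 libraries per HiSeq lane. Per the labels and the submitters' processing notes, reads were aligned to mm9 with TopHat2, and DESeq2 is named; the counting tool and annotation are not given in the sources used here. The authors deposited 1 table of RPKM per mouse, reads scaled to feature length and library size, with no counts and no columns of comparisons (0 unused columns). The lengths that the values imply are not always those of a transcript. For Hspa5 the length was 6302 bases, more than its annotated locus spans (GRCm38, 34771970 to 34777547). Abundances of different genes therefore compare only roughly. Because RPKM are not counts, limma 3.58.1 (R 4.3.3) with a variance trend was used on log2(RPKM + 0.1) in place of a count test. Whole reads were recovered from the steps of the RPKM for all 16973 features that averaged 0.5 RPKM or more (within 0.05 of a whole read), and served for depth and for voom as an alternative.

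Features were called at an unadjusted limma p under 0.05 with at least 1.2-fold, or at a Benjamini-Hochberg adjusted p under 0.1 over all 16973. In simulated data on 16973 features, with noise drawn independently for each feature, limma calls were made at the adjusted threshold only. They found 16 of 67 genes changed 1.5-fold, 47 of 67 changed 2-fold and 59 of 66 changed 4-fold, with 14 false calls. The error rate of the unadjusted calls was not simulated. Within-group correlations used deviations from group means and 100000 permutations within groups. Python 3.11.15, numpy 2.4.6, scipy 1.17.1, pandas 2.3.3 and matplotlib 3.10.9 were used. All 36 genes and their pathway and marker lists were chosen with earlier results of these data known, and every gene of the set was described. Of other pathway lists the rule named up to 3 called genes with the lowest p, and of marker lists the most abundant gene; further genes are marked in the text as named after their values were seen. P-values measure the spread between these mice. Lanes of single libraries are not given in the labels. Intervals and floors cover counting error only. The GC slope and the scaling to listed reads were added after seeing the data. The other alternatives are given with the limits.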

Additional observations from a re-analysis of the deposited data

Results flagged for a closer look

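Among 96 sets of values (35 genes and other measures in each group of 8 mice), 2 held a value far from its nearest neighbour by Dixon's ratio of gap to range, and chance alone marks about 1 in 20. Ppib was at 102 RPKM in HLU 4, with a ratio of 0.561. Syvn1 was at 0.857 RPKM in the same mouse, with a ratio of 0.660. HLU 4 also had the steepest negative GC slope of the 16 libraries (-0.60 log2 units per 10 percentage points), and both genes had a positive within-group r with that slope (0.69 for Ppib and 0.77 for Syvn1). Whether the slope accounts for either value was not tested.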

How the results depend on the processing

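None of the 35 genes was called higher in any of the 33 alternatives, and the median of the 35 stayed -0.19 to -0.12 from that of all features. The main counts were 10 genes lower, 808 features lower and 188 higher, and 0 past the adjusted threshold. With median-of-ratios rescaling they were 6, 394 and 381 (median of the 35 genes -0.16), with P4hb (0.0099) and Txndc5 (0.0072) reversed. With quantile normalization they were 4, 364 and 460 (median -0.12), with Sel1l (0.026), P4hb (0.058), Atf6 (0.020), Eif2ak3 (0.013), Uggt1 (0.017) and Txndc5 (0.035) reversed. Per reads on listed non-mitochondrial features they were 5, 380 and 393 (median -0.14), with Sel1l (0.019), P4hb (0.033), Atf6 (0.00081), Eif2ak3 (0.013), Uggt1 (0.0062) and Txndc5 (0.030) reversed. Rescaling with the GC slope gave 534 higher features and a median of -0.16, with P4hb (0.0098) and Txndc5 (0.0058) reversed, and the slope alone gave 1385 lower. The plasma cell score as covariate gave 6 genes, 284 lower and 118 higher features. The erythroid and neutrophil scores gave 1740 lower and 1270 higher features and 50 past the adjusted threshold, 4 of them in the set, with Derl3 (0.016), Dnajb9 (-0.18), Syvn1 (0.16), Ddit3 (0.068), Ppib (0.022), Txndc5 (0.11) and Fkbp2 (0.45) reversed. The promyelocyte score gave 3 past the adjusted threshold, 1 of them in the set, and leaving out the variance trend or the filter 1 each. Higher features numbered 391 without the filter, 106 with a minimum of 2 RPKM and 108 without the 2 smallest libraries, where Dnajb9 was -0.016. With 1 mouse left out, 7 to 12 genes, 471 to 1385 lower and 117 to 363 higher features and 0 to 1 adjusted calls remained, the median of the 35 was -0.28 to -0.20, and Dnajb9 (-0.036 to 0.12) and Fkbp2 (-0.50 to 0.015) changed sign.

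For an r of at least 0.6, genes following the plasma cell score fell from 8 to 1 with rescaling, to 2 without the farthest mice and to 1 with rescaling and the slope removed, those following the promyelocyte score from 10 to 5 without the farthest mice, and those following Hspa5 from 12 to 6 with rescaling and the slope removed. Score differences of marker lists reversed for fibrillar collagens (-0.13) and osteoclasts (-0.11) without the 2 smallest libraries and for osteoblasts (0.048) with rescaling. That of osteocytes with rescaling (0.56) had an exact permutation p of 0.037, not adjusted over the 13 lists. The causes were not tested.

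The replicate numbers did not pair the mice (r of same-numbered mice -0.17 to 0.51), and a replicate block gave 9 genes lower.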
